A study of Mus with 96 samples.

Results

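The livers of Hep-Bmal1KO mice and of their Hep-Bmal1WT littermates were compared 2 hours after lights on (ZT2) under normal chow (NC). Members were chosen by label, as the 4 NC Hep-Bmal1KO libraries at ZT2 and the 4 NC Hep-Bmal1WT libraries at ZT2, which are 8 of the 96 libraries of the series. The series as a whole crossed both genotypes with NC or cdHFD and with 6 times of day, 4 mice in each group. The cdHFD is a high-fat diet that lacks choline and contains cholesterol. The same comparison 12 hours later, at ZT14, with 8 further NC libraries, served to tell which of the ZT2 differences were found at the opposite phase of the day.

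Both genotypes carried the floxed Bmal1 alleles on a C57BL/6J background. Hep-Bmal1KO mice were AlbCre/+ Bmal1flx/flx and Hep-Bmal1WT mice were Alb+/+ Bmal1flx/flx, so that Cre was present in the knockout alone. The albumin promoter drives Cre in hepatocytes, and the other cells of the liver kept Bmal1. The mice were 8 to 10 weeks old, were kept in 12 hours of light and 12 hours of dark, and received their diet for 2 weeks. Each of the 4 NC groups at ZT2 and ZT14 held 2 males and 2 females, given below as replicates 1 and 2 (male) and 3 and 4 (female), and the cdHFD groups at ZT2 also held 2 of each sex.

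BMAL1 (gene Arntl) pairs with CLOCK or NPAS2 and activates genes that carry E-box elements. Among these targets are the Per and Cry genes, whose products repress the pair, the nuclear receptors Nr1d1 and Nr1d2, which repress Arntl, and the output factors Dbp, Tef and Hlf, which pass the rhythm on to genes of liver metabolism. In the liver of an intact mouse at the start of the light phase, Arntl is near its peak and targets such as Per2, Dbp and Tef are low. At the start of the dark phase the order is turned around for these genes, though not for every target. A genotype difference in such a gene can therefore depend on the hour at which the liver was taken.

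BRB-seq, a method that reads only the 3′ end of mRNA, gave between 1861740 and 7087447 reads on genes for the 8 libraries at ZT2, and between 5000934 and 8599309 for the 8 at ZT14. The shallowest, Hep-Bmal1WT ZT2 replicate 3, stood apart in depth and also had the highest share of reads outside genes at ZT2 (13.2%). Levels are given in CPM, read counts scaled to library size by TMM, and means carry the SD over 4 mice. The first axis of variation over the 500 most variable genes of the 16 libraries (46.4% of the variance) followed sex, and the second (19.9%) separated every Hep-Bmal1KO from every Hep-Bmal1WT library. Hep-Bmal1KO ZT2 replicate 1, a male, lay between the sexes on the first axis (-6.05, against -19.7 for the other male of its group and 21.6 and 28.5 for the females). At ZT2 and again at ZT14 every NC library of a genotype sat in 1 column of the plate, a separate column for each genotype and time, so that plate column cannot be told apart from genotype at either time or from the change between the times.

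The labelled tissue was checked against marker genes. All 9 hepatocyte markers tested were present, with a summed level of 125130 to 187150 CPM in Hep-Bmal1WT and 103020 to 132850 CPM in Hep-Bmal1KO livers at ZT2. The mean sums were 150830 and 113590 CPM, and albumin (Alb) alone accounted for the lower one. Alb was at 95212 ± 22088 against 57628 ± 11881 CPM (log2 fold change -0.72 ± 0.25, adjusted p = 0.31, and 0.0021 with sex as a covariate). Of the 9 hepatocyte markers 5 had positive and 4 negative log2 fold changes at ZT2, with a median of 0.017. The 7 cholangiocyte markers summed to 54.95 to 65.1 CPM in Hep-Bmal1WT and 70.5 to 121.6 CPM in Hep-Bmal1KO livers. No member of that list was called at ZT2, the smallest p belonging to Spp1, a secreted matrix protein (27.1 ± 5.46 against 49.5 ± 16.04 CPM, adjusted p = 0.15), which was called with sex as a covariate (adjusted p = 0.036). At ZT2 5 of the 7 had positive and 2 negative log2 fold changes, with a median of 0.11 and a lowest value of -0.9. At ZT14 all 7 had positive values, with a median of 0.82, and 1 was called. Summed macrophage, endothelial, stellate cell, lymphocyte and neutrophil, and erythroid markers overlapped between the genotypes, as did the hepatocyte sums at ZT2. The hepatocyte sums did not overlap at ZT14, with 129630 to 188960 CPM in Hep-Bmal1WT and 82694 to 123080 CPM in Hep-Bmal1KO livers. At ZT2 all 12 macrophage, all 6 erythroid and 8 of 10 endothelial markers had negative values (medians of -0.24, -0.34 and -0.16). Positive values were found for 10 of 11 lymphocyte and neutrophil and 8 of 10 stellate cell markers (medians of 0.28 and 0.11). No marker of these 5 lists was called at ZT2, with sex as a covariate or without. In whole liver, fewer cells of a type and less RNA per cell cannot be told apart, and the part of these shifts in the results below was not tested.

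At ZT2, 63 of 15548 genes (0.405%) were called different between the genotypes at an adjusted p under 0.05, by edgeR's quasi-likelihood F-test, adjusted across all genes after Benjamini and Hochberg. Every adjusted p given here is from that test unless another fit is named. Of the 63, 40 were higher in Hep-Bmal1KO livers (0.257% of all genes) and 23 were lower (0.148%), and 45 changed by at least 1 on the log2 scale. The 4 Hep-Bmal1KO and the 4 Hep-Bmal1WT libraries did not overlap for 62 of the 63, against 4.51% of all genes. This follows largely from the choice of the 63 on the same libraries and is no result of its own. The median log2 fold change over all genes was 0.0032. At an unadjusted p under 0.05 the count was 1367. With sex as a covariate, a balanced factor here, 247 genes (1.59%) were called, the 63 among them, and the split then became even (123 higher and 124 lower). Leaving out 1 library moved the count of 63 to between 35 (without Hep-Bmal1KO ZT2 replicate 1) and 87, and it was 36 without Hep-Bmal1WT ZT2 replicate 2 and 39 without the shallow replicate 3.

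At ZT14 the same test called 403 genes (2.59%), 233 higher and 170 lower. Of the 63 genes of ZT2, 44 (69.8%) were called at ZT14 in the same direction, and these made up 10.9% of the ZT14 calls. Among the 44, 30 had the larger absolute log2 fold change at ZT14. The 44 also had to pass at ZT14, so this count does not show larger effects at that time. A single gene, Tef, was called at both times in opposite directions, and 18 were not called at ZT14. The change of the genotype difference itself between the times was called for 18 of all genes (0.116%), 17 of them called at ZT14 and 2 called at ZT2, namely Tef and Per2. For the other 61 genes of ZT2 the test did not show that the difference had changed between the times, which does not show that it was equal.

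**Figure D1:**
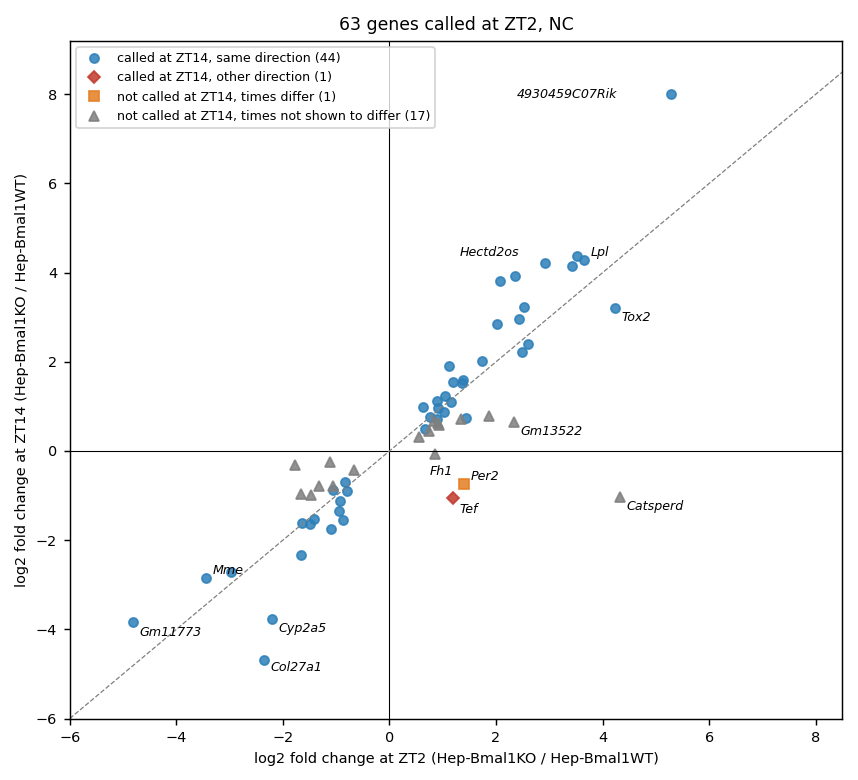
Log2 fold change of Hep-Bmal1KO over Hep-Bmal1WT livers at ZT2 (x axis) and at ZT14 (y axis) for the 63 genes called at ZT2 under NC, 4 mice a group; the dashed line marks equal values and symbols and colours give the call at ZT14. Most genes lie near the line on the same side of 0 at both times (44 called in the same direction), while Tef and Per2 lie above 0 at ZT2 and below 0 at ZT14.

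The targeted gene was examined first. Arntl measured 16.3, 12.6, 17.9 and 21.8 CPM in the 4 Hep-Bmal1WT livers at ZT2 and 6.42, 6.69, 8.91 and 10.7 CPM in the 4 Hep-Bmal1KO livers. Every Hep-Bmal1KO liver was below every Hep-Bmal1WT liver, but the difference did not pass the test (log2 fold change -1.07 ± 0.34, adjusted p = 0.26) unless sex was a covariate (adjusted p = 0.034). At ZT14 the means stood in the other order, with 0.983, 0.735, 2.58 and 4.87 CPM in Hep-Bmal1WT and 5.68, 3.92, 3.58 and 6.05 CPM in Hep-Bmal1KO livers and an overlap of the groups (1.02 ± 0.40, adjusted p = 0.24). The floxed exon lies outside the 3′ end that is read, and transcripts from the deleted allele and from non-hepatocytes are counted too, so these levels do not check the deletion.

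Neither partner of BMAL1 passed the test at ZT2. Clock was at 24.6 ± 3.04 CPM in Hep-Bmal1WT and 23.2 ± 2.41 CPM in Hep-Bmal1KO livers (log2 fold change -0.088 ± 0.16, 95% interval -0.42 to 0.24). Npas2, the alternative partner, was at 6.29, 2.93, 19.5 and 7.48 CPM in Hep-Bmal1WT and 9.697, 15.1, 13.1 and 12.5 CPM in Hep-Bmal1KO livers, and the groups overlapped (adjusted p = 0.67). At ZT14 Npas2 was almost absent from Hep-Bmal1WT livers (0, 0.367, 0.215 and 0.649 CPM) and stayed at 17.4, 12.7, 16.1 and 14.9 CPM in Hep-Bmal1KO livers, a log2 fold change of 5.46 ± 0.55 (adjusted p = 4.7e-06). This shift between the times passed the test (adjusted p = 0.0031). Clock was also higher in Hep-Bmal1KO livers at ZT14 (0.73, adjusted p = 0.017), with the change between the times not called (adjusted p = 0.36).

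Of the 8 E-box repressors, 2 were called higher in Hep-Bmal1KO livers at ZT2 and none was called lower. Cry1, a repressor of CLOCK and BMAL1, was at 15.5, 12.3, 14.9 and 11.3 CPM in Hep-Bmal1WT and 32.4, 31.6, 30.9 and 41.8 CPM in Hep-Bmal1KO livers, without overlap (log2 fold change 1.35 ± 0.24, adjusted p = 0.012). It was higher by a like amount at ZT14 (1.54 ± 0.24, adjusted p = 6.3e-04). Per2 is described below. Cry2, Per1, Per3 and Bhlhe40 gave positive values at ZT2 that did not pass the test, of 1.01, 0.74, 1.32 and 0.68 (adjusted p from 0.12 to 0.68). Per3 was lower in Hep-Bmal1KO livers at ZT14 (-1.99 ± 0.45, adjusted p = 0.019), as did Ciart (-3.75 ± 0.69, adjusted p = 0.0034). Ciart and Bhlhe41 were low in all 8 livers at ZT2 (means of at most 0.348 ± 0.484 CPM for Ciart in Hep-Bmal1WT and 0.311 ± 0.371 CPM for Bhlhe41 in Hep-Bmal1WT livers), and no difference was detectable at this depth.

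The nuclear receptors Nr1d1 and Nr1d2, repressors of Arntl, did not pass the test at ZT2. Nr1d1 was at 1.97, 7.88, 14.9 and 8.798 CPM in Hep-Bmal1WT and 0.597, 2.02, 1.51 and 5.099 CPM in Hep-Bmal1KO livers, with overlap (-1.78 ± 0.55, adjusted p = 0.24). Nr1d2 was at 6.81 ± 1.38 CPM against 3.52 ± 2.35 CPM at ZT2 (adjusted p = 0.28) and was lower in Hep-Bmal1KO livers at ZT14 (-2.27 ± 0.29, adjusted p = 8.2e-05). Rora did not pass at either time (0.14 at ZT2, 95% interval -0.23 to 0.5).

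Tef, an output factor of the clock and the gene of smallest p for the change between the times, was higher in Hep-Bmal1KO livers at ZT2 and lower at ZT14. At ZT2 it measured 12.6, 21.1, 15.4 and 15.5 CPM in Hep-Bmal1WT and 31.03, 42.5, 39.2 and 35.5 CPM in Hep-Bmal1KO livers (log2 fold change 1.19 ± 0.16, adjusted p = 5.6e-04). At ZT14 it measured 98.3, 107, 86.7 and 93.3 CPM in Hep-Bmal1WT and 41.4, 43.9, 52.7 and 48.4 CPM in Hep-Bmal1KO livers (-1.05 ± 0.15, adjusted p = 3.3e-04). The groups did not overlap at either time. The Hep-Bmal1WT level rose by 2.57 on the log2 scale from ZT2 to ZT14 (adjusted p = 2.3e-08), whereas the Hep-Bmal1KO value moved by 0.33 (adjusted p = 0.41). The difference between the 2 genotype effects was 2.24 ± 0.22 (adjusted p = 5.0e-05), and it was called under all 22 alternatives. Tef lies on chromosome 15, 81802673 to 81826863 (RefSeq, GRCm38.p6).

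Per2, a core repressor of the clock, showed the same order of levels. At ZT2 it measured 3.93, 4.396, 2.56 and 3.67 CPM in Hep-Bmal1WT and 12.98, 11.98, 7.899 and 7.07 CPM in Hep-Bmal1KO livers (log2 fold change 1.4 ± 0.25, adjusted p = 0.0095). At ZT14 it measured 26.5, 24.3, 39.6 and 23.4 CPM in Hep-Bmal1WT and 17.6, 15.2, 17.5 and 17.1 CPM in Hep-Bmal1KO livers (-0.75 ± 0.21, adjusted p = 0.058, and 0.024 with sex as a covariate). The 4 Hep-Bmal1KO livers were thus all above Hep-Bmal1WT at ZT2 and all below at ZT14. From ZT2 to ZT14 the Hep-Bmal1WT level rose by 2.9 on the log2 scale (adjusted p = 1.1e-06). The Hep-Bmal1KO level rose by 0.75 (95% interval 0.31 to 1.2, adjusted p = 0.19). The genotype difference changed by 2.15 ± 0.32 between the times (adjusted p = 0.0042). That change was called under 21 of 22 alternatives, the exception being the fit over all 48 NC libraries (adjusted p = 0.21). Per2 lies on chromosome 1, 91415977 to 91459351.

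No other output factor passed the test at ZT2. Dbp was low in both genotypes, with 6.68, 5.31, 4.099 and 4.11 CPM in Hep-Bmal1WT and 4.03, 3.42, 9.24 and 8.72 CPM in Hep-Bmal1KO livers (0.3 ± 0.51, adjusted p = 0.92). At ZT14 it was at 101, 104, 21.1 and 26.6 CPM in Hep-Bmal1WT and 15.9, 14.6, 9.39 and 7.23 CPM in Hep-Bmal1KO livers (-2.43 ± 0.44, adjusted p = 0.0028), the 2 male Hep-Bmal1WT livers being far above the 2 female ones. Hlf and Nfil3, the latter a repressor of the same target sites, gave -0.1 and -0.3 at ZT2 (adjusted p = 0.94 and 0.8). Over the 19 clock genes, edgeR called a change between ZT2 and ZT14 for 13 in Hep-Bmal1WT livers and for none in Hep-Bmal1KO livers. At an unadjusted p under 0.05 there were 15 in Hep-Bmal1WT and 5 in Hep-Bmal1KO livers, and DESeq2 called 15 and 1. The share of all genes called in these 2 contrasts was not counted, so these counts cannot be set against a background. The adjustment was harsher in Hep-Bmal1KO livers, where edgeR's unadjusted p of 2.3e-04 for Hmgcs1 became an adjusted p of 0.13. In Hep-Bmal1WT livers an unadjusted p of 2.4e-04 for Grk5 became 0.026. A gene without a call is not shown to have kept its level. Of the same 19, 4 differed between genotypes at ZT2 and 9 at ZT14, and 3 had a called change of the genotype difference (Tef, Per2 and Npas2). With sex as a covariate, and likewise with DESeq2, these counts were 6, 10 and 6.

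**Figure D2:**
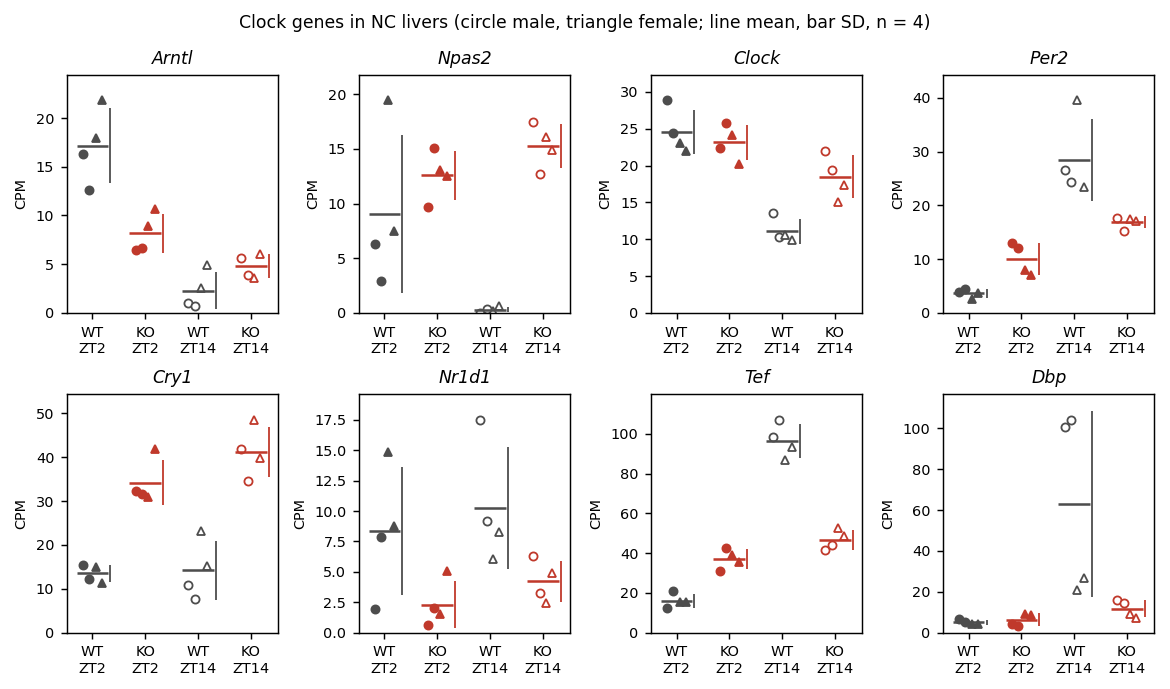
Level in CPM of 8 clock genes in each NC liver at ZT2 (filled) and ZT14 (open), Hep-Bmal1WT in grey and Hep-Bmal1KO in red, males as circles and females as triangles, with the mean and SD of 4 mice. For Tef and Per2 the Hep-Bmal1KO livers lie above Hep-Bmal1WT at ZT2 and below at ZT14, Cry1 is higher in Hep-Bmal1KO at both times, Nr1d1 overlaps at ZT2, and Dbp differs at ZT14.

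Lipoprotein lipase, glutathione S-transferases and cytochromes P450 were among the genes called higher at both times. Lpl, which encodes lipoprotein lipase and lies on chromosome 8, 68880555 to 68906932, measured 25.9, 24.7, 19.98 and 14.1 CPM in Hep-Bmal1WT and 306, 286, 178 and 301 CPM in Hep-Bmal1KO livers at ZT2. The groups were far apart, with a 12.6-fold higher level in Hep-Bmal1KO (log2 fold change 3.66 ± 0.29, adjusted p = 8.1e-07), and the ZT14 value was 4.28 ± 0.30. Gstm2, a glutathione S-transferase, was at 80.01, 66.3, 93.8 and 100.2 CPM in Hep-Bmal1WT and 283, 376, 375 and 351 CPM in Hep-Bmal1KO livers (2.03 ± 0.17, adjusted p = 8.1e-07), and its neighbour Gstm6 rose by 1.11 (adjusted p = 0.0011). The 2 genes are close paralogs, and how the counting divided reads between them is not known. Cyp2c55, a cytochrome P450 of xenobiotic and lipid metabolism, was at 21.2, 24.5, 16.4 and 6.89 CPM in Hep-Bmal1WT and 189.9, 127, 116 and 312 CPM in Hep-Bmal1KO livers (3.43 ± 0.39, adjusted p = 5.1e-05). Its abundant relative Cyp2c29 went from 588 ± 40.3 to 1093 ± 178 CPM (0.9 ± 0.13, adjusted p = 0.0014), with the same caution about paralogs. Oat, the ornithine aminotransferase of mitochondria, was at 659, 558, 650.2 and 871 CPM in Hep-Bmal1WT and 1104, 1336, 1442 and 1785 CPM in Hep-Bmal1KO livers (1.05 ± 0.17, adjusted p = 0.0032). All 6 were called higher at ZT14 as well.

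Genes of other functions were also higher at both times. Atp11a, a phospholipid flippase of the plasma membrane, rose from 3.89 ± 0.778 to 22.8 ± 6.64 CPM (2.59 ± 0.25, adjusted p = 7.5e-06). Tox2, an HMG-box transcription factor, was at 0.5898, 0.183, 0 and 0.4399 CPM in Hep-Bmal1WT and 9.399, 6.07, 7.06 and 5.76 CPM in Hep-Bmal1KO livers (4.23 ± 0.45, adjusted p = 2.4e-05). Raet1d, a ligand of the NKG2D receptor of killer cells, was at 4.42 ± 1.07 against 25.2 ± 11.9 CPM (2.48 ± 0.33, adjusted p = 4.9e-04). Grk5, a kinase of G protein-coupled receptors, was at 8.26, 3.48, 6.15 and 7.33 CPM in Hep-Bmal1WT and 14.9, 39.2, 37.3 and 38.8 CPM in Hep-Bmal1KO livers (2.36 ± 0.32, adjusted p = 4.9e-04), with 1 male Hep-Bmal1KO liver well below the other 3. Hectd2os, transcribed opposite to the ubiquitin ligase gene Hectd2, went from 65.8 ± 32.3 to 496 ± 88.7 CPM (2.92 ± 0.28) and Hectd2 itself from 3.13 ± 2.02 to 15.5 ± 5.83 CPM (2.44 ± 0.44). The strand setting of the counting is not given in the sources used here, so that reads of this pair cannot be told apart. Gm379 rose by 3.53 (adjusted p = 4.3e-04). The transcript 4930459C07Rik had 3 reads in the 4 Hep-Bmal1WT livers and 170 in the 4 Hep-Bmal1KO livers at ZT2, a ratio of 43.5 (95% counting interval 14.6 to 213.1), and at ZT14 no read in Hep-Bmal1WT against 149 in Hep-Bmal1KO livers, at least 38.97-fold higher against a floor of 3 reads over the group.

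The genes that were lower at both times included a cell surface peptidase, a cytochrome P450 and a fatty acid binding protein. Mme, which encodes neprilysin and lies on chromosome 3, 63295211 to 63383713, was at 22.6, 27.5, 28.2 and 32.99 CPM in Hep-Bmal1WT and 4.33, 0.934, 2.52 and 2.303 CPM in Hep-Bmal1KO livers. That is 10.9-fold lower, without overlap (log2 fold change -3.45 ± 0.35, adjusted p = 1.2e-05), and ZT14 gave -2.86 ± 0.32. Cyp2a5, a cytochrome P450 that oxidises coumarin and nicotine, was at 509, 1195, 517 and 442 CPM in Hep-Bmal1WT and 85.9, 228, 92.8 and 169 CPM in Hep-Bmal1KO livers (-2.21 ± 0.34, adjusted p = 0.0019). It shares much of its sequence with Cyp2a4, so that its level is uncertain, and at ZT14 the difference was -3.77 ± 0.36, with the change between the times called when sex was a covariate (adjusted p = 0.037) and not otherwise (0.4). Col27a1, a fibrillar collagen, fell from 6.397 ± 1.72 to 1.22 ± 0.608 CPM (-2.36 ± 0.46, adjusted p = 0.019). St3gal5, the synthase of the ganglioside GM3, was at 92.97 ± 25.6 against 43.6 ± 7.48 CPM (-1.09 ± 0.22, adjusted p = 0.031).

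Among abundant genes, Fabp1, the main fatty acid binding protein of hepatocytes, went from 7842 ± 1175 to 4523 ± 842 CPM (-0.79 ± 0.14, adjusted p = 0.0086). Hsd17b11, a dehydrogenase of lipid droplets, and Abhd6, a monoacylglycerol lipase, fell by 0.83 and 0.88 (adjusted p = 0.0035 and 0.011). A pair of unnamed transcripts was lower as well. Gm11773 had 31 reads in the 4 Hep-Bmal1WT livers and 1 in the 4 Hep-Bmal1KO livers, a ratio of 40.4 (95% counting interval 6.73 to 1645), and Gm13775 went from 54.3 ± 33.99 to 6.86 ± 7.57 CPM (-2.97 ± 0.64, adjusted p = 0.046). Fabp1, Hsd17b11, Abhd6 and Hectd2 fall outside the naming rule and were chosen after their values were seen.

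**Figure D3:**
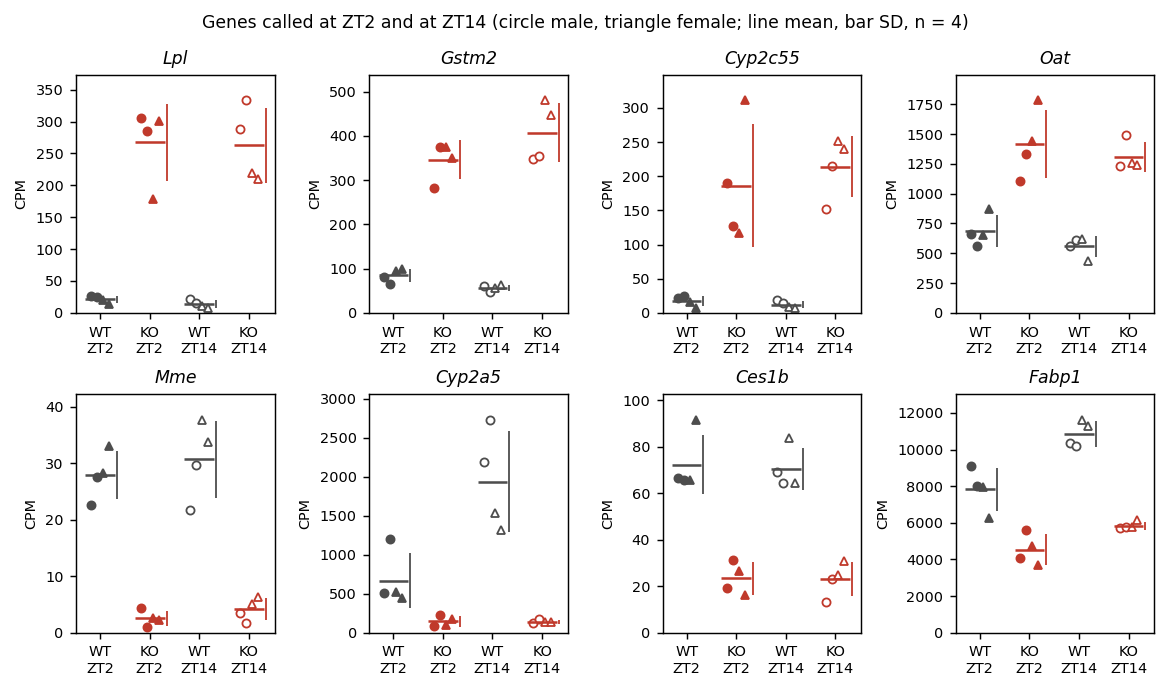
Level in CPM of 8 genes called at ZT2 and at ZT14 in each NC liver, Hep-Bmal1WT in grey and Hep-Bmal1KO in red, ZT2 filled and ZT14 open, males as circles and females as triangles, with the mean and SD of 4 mice. Lpl, Gstm2, Cyp2c55 and Oat are higher and Mme, Cyp2a5, Ces1b and Fabp1 lower in Hep-Bmal1KO livers at both times, with no overlap of the genotypes within a time.

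Of 20 enzymes of cholesterol synthesis, 5 were called higher in Hep-Bmal1KO livers at ZT2, none was called lower, and 19 had a positive log2 fold change, with a median of 0.81 against 0.0032 over all genes. The 5 were Lss, Fdps, Cyp51, Nsdhl and Hmgcs1, which encode lanosterol synthase, farnesyl diphosphate synthase, lanosterol demethylase, a sterol dehydrogenase and the cytosolic HMG-CoA synthase. Lss was at 26.1, 30.8, 39.96 and 45.5 CPM in Hep-Bmal1WT and 79.1, 68.5, 107 and 107 CPM in Hep-Bmal1KO livers (1.35 ± 0.20, adjusted p = 0.0012). Fdps was at 199.9, 209, 313 and 298 CPM in Hep-Bmal1WT and 433, 489.5, 484 and 485 CPM in Hep-Bmal1KO livers (0.89 ± 0.15, adjusted p = 0.0069). In both genes every Hep-Bmal1KO liver was above every Hep-Bmal1WT liver, and in Hep-Bmal1WT the 2 males were below the 2 females. Cyp51, Nsdhl and Hmgcs1 rose by 0.93, 0.74 and 1.18 (adjusted p = 0.019, 0.04 and 0.04).

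With sex as a covariate 12 of the 20 were called higher at ZT2 and again 12 at ZT14, while without the shallow Hep-Bmal1WT replicate 3 the ZT2 count was 3. Without sex in the model 4 were called higher at ZT14, with a median of 0.64. None of the 20 had a called change between the times, with sex in the model or without. Lss, Cyp51 and Nsdhl were then not called at ZT14, with log2 fold changes of 0.72, 0.58 and 0.44 and adjusted p of 0.052, 0.10 and 0.17. Of 19 genes of sterol control, uptake and efflux none was called at ZT2 without sex in the model, against 4 at an unadjusted p under 0.05, and 2 were called higher with it. Their median was -0.021, and the smallest p belonged to Abcg5, a sterol exporter (27.6 ± 4.96 against 51.4 ± 16.6 CPM, adjusted p = 0.058, and 0.0029 with sex as a covariate).

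**Figure D4:**
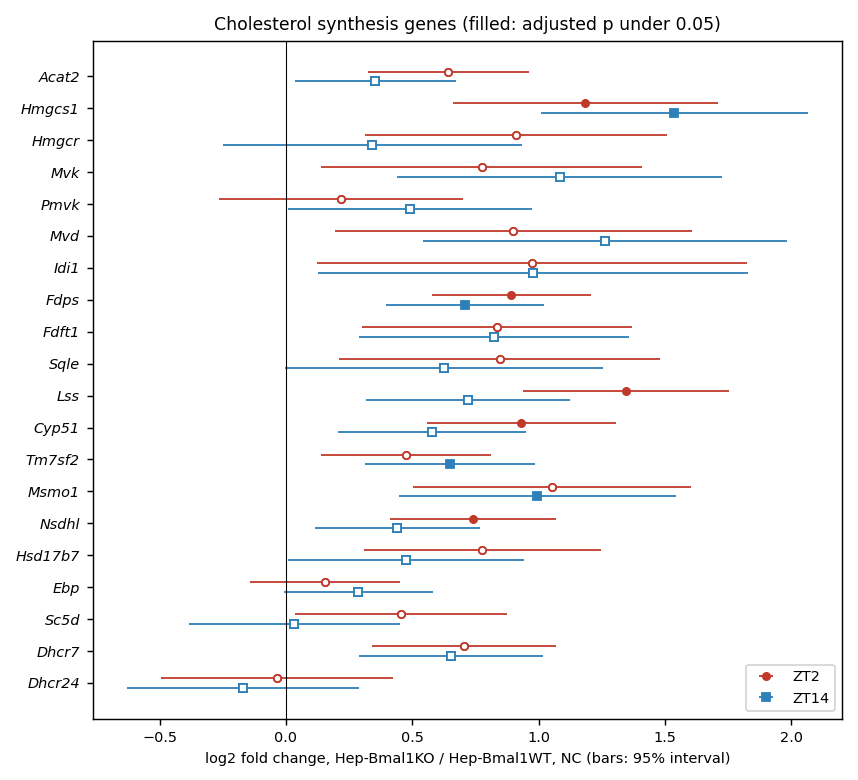
Log2 fold change of Hep-Bmal1KO over Hep-Bmal1WT livers for the 20 cholesterol synthesis genes at ZT2 (red circles) and ZT14 (blue squares) with 95% intervals, filled where the adjusted p was under 0.05. At ZT2, 19 of 20 values are above 0 and 5 are filled, and the intervals of the 2 times overlap for every gene.

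The other metabolic lists held few calls at ZT2. Among 11 carboxylesterases, 3 were called lower and none was called higher (median -0.26). These 3 are members of the Ces1 cluster and close paralogs. Ces1b was at 66.6, 65.8, 65.6 and 91.6 CPM in Hep-Bmal1WT and 19.2, 31.4, 26.7 and 16.1 CPM in Hep-Bmal1KO livers (-1.63 ± 0.23, adjusted p = 7.9e-04). Ces1e and Ces1d fell by 1.06 and 1.41 (adjusted p = 0.022 and 0.049), whereas Ces1c, of the same cluster, was at 3064 ± 599 and 3080.0 ± 689 CPM. In fatty acid oxidation and ketogenesis 1 of 26 was called lower, Acaa1b, a peroxisomal thiolase, and 23 of the 26 had negative values (median -0.36). Acaa1b was at 1465, 1534, 1053 and 515 CPM in Hep-Bmal1WT and 420.0, 557, 388 and 452 CPM in Hep-Bmal1KO livers (-1.33 ± 0.26, adjusted p = 0.022), and it was the 1 of the 63 genes whose groups overlapped, the lowest Hep-Bmal1WT liver lying below the highest Hep-Bmal1KO liver. With sex as a covariate 6 of the 26 were called lower and none was called higher.

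In glucose and glycogen metabolism 1 of 25 was called lower, Khk, the ketohexokinase that commits fructose to breakdown. Khk was at 354, 378, 373 and 331 CPM in Hep-Bmal1WT and 194, 223, 231 and 252 CPM in Hep-Bmal1KO livers (-0.67 ± 0.13, adjusted p = 0.015). Of 31 genes of amino acid metabolism and the urea cycle, 1 was called, Oat, and 25 had positive values (median 0.36). With sex as a covariate 6 of the 31 were called higher and none was called lower. Of 23 xenobiotic receptors and phase I enzymes, Cyp2c55 and Cyp2c29 were called higher and Cyp2a5 was called lower (median -0.016). Of 26 conjugation and export genes Gstm2 and Gstm6 were called higher (median -0.31). With sex as a covariate 3 were called higher and 3 were called lower in each of these 2 lists. The 22 acute phase and iron genes held 13 positive values and 1 call, Itih3, a secreted protease inhibitor that binds hyaluronan (0.84 ± 0.18, adjusted p = 0.047). Ceruloplasmin (Cp), which is not on that list, was also called higher and is given under other observations. The 22 cell cycle genes held 15 positive values and 1 call, Mcm6, a subunit of the replicative helicase. Mcm6 was at 8.65, 3.48, 7.69 and 9.09 CPM in Hep-Bmal1WT and 38.04, 27.7, 18.7 and 20.7 CPM in Hep-Bmal1KO livers (1.87 ± 0.37, adjusted p = 0.022). The median of the cell cycle list was 0.65 at ZT2 and -0.16 at ZT14. The fit with sex called 2 cell cycle genes higher, and 2 glucose and glycogen genes and 4 carboxylesterases lower. Without the shallow Hep-Bmal1WT ZT2 replicate 3, 1 carboxylesterase was called lower. No gene was then called in fatty acid oxidation and ketogenesis, acute phase and iron, or the cell cycle. The number of calls in the other lists of this paragraph stayed the same.

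No gene was called at ZT2 in the lists of bile acids, fatty acid and triglyceride synthesis, temperature-driven genes, unfolded protein response, glucocorticoid-responsive genes, growth hormone and IGF axis, ribosome biogenesis, interferon-stimulated genes and NAD synthesis, by edgeR at an adjusted p under 0.05. At an unadjusted p under 0.05 these held 0 of 21, 5 of 21, 0 of 14, 0 of 18, 2 of 12, 2 of 16, 0 of 26, 3 of 21 and 3 of 16 genes. The member of smallest p was Acly, which makes acetyl-CoA from citrate, for the second list (0.77, adjusted p = 0.086, and 0.0034 with sex as a covariate, the 1 call which that fit made in these 9 lists) and Kynu of the kynurenine pathway for NAD synthesis (0.52, adjusted p = 0.19). For the rest these were Nr0b2 (-0.86), Hsf1 (-0.48), Hyou1 (-0.66), Zbtb16 (-1.52), Igfbp2 (-0.59), Mybbp1a (0.28) and Isg15 (0.7), with adjusted p of 0.44 to 0.67. For the cell type lists other than cholangiocytes they were Cps1 (0.44), Ighm (1.44), Timd4 (-0.81), Clec4g (-0.42), Col1a2 (0.56) and Slc4a1 (9 reads in the 4 Hep-Bmal1WT and 3 in the 4 Hep-Bmal1KO livers), and none of these passed (adjusted p of 0.25 to 0.72).

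The 18 genes called at ZT2 and not at ZT14 were of several kinds. All 18 had the smaller absolute log2 fold change at ZT14, which follows largely from how they were chosen and is no result of its own. The sign was the same at both times for 15. The count of 18 depended on single libraries, falling to 4 without Hep-Bmal1WT ZT2 replicate 2 and reaching 25 without Hep-Bmal1WT ZT2 replicate 4. For 12 of them the ZT14 difference lay in the same direction at an unadjusted p under 0.05, although the adjusted p was over 0.05. These 12 were Smim1, Lss, Itih3, Retsat, Khk, Cyp51, Eid1, Acaa1b, Nsdhl, Wfdc21, Avpi1 and Mcm6. Retsat, which encodes retinol saturase, is an example. It was at 754, 830.3, 366 and 289 CPM in Hep-Bmal1WT and 196, 225, 231 and 154 CPM in Hep-Bmal1KO livers at ZT2 (-1.48 ± 0.28, adjusted p = 0.015), with the 2 male Hep-Bmal1WT livers highest and no overlap, and the ZT14 value was -0.99 (95% interval -1.56 to -0.42, adjusted p = 0.058). Smim1, a small membrane protein, and Wfdc21, a secreted protein with a whey acidic protein domain, were lower at ZT2 by 1.07 and 1.66 and gave -0.78 and -0.97 at ZT14 (adjusted p = 0.051 and 0.18).

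The remaining 6 were Per2, Fh1, Hif1an, Catsperd, Gm13522 and CT010467.2. Fh1, the fumarate hydratase of the citric acid cycle, was at 229.6, 202, 132 and 172 CPM in Hep-Bmal1WT and 411, 259, 327 and 343 CPM in Hep-Bmal1KO livers at ZT2, without overlap (0.86 ± 0.17, adjusted p = 0.022). At ZT14 it was at 247, 283, 273 and 247 CPM in Hep-Bmal1WT and 268, 286, 218 and 223 CPM in Hep-Bmal1KO livers (-0.078, 95% interval -0.43 to 0.27). Fh1 was the 1 gene of the 18 whose ZT14 interval lay within 0.5 of 0 on either side, and its change between the times was called with sex as a covariate (adjusted p = 0.023) and not without (0.22). Hif1an, an asparaginyl hydroxylase that inhibits the hypoxia-inducible factor, was at 11.8, 11.2, 12.8 and 8.65 CPM in Hep-Bmal1WT and 4.33, 4.67, 5.04 and 6.25 CPM in Hep-Bmal1KO livers at ZT2 (-1.11 ± 0.24, adjusted p = 0.047), and at ZT14 the value was -0.24 (95% interval -0.74 to 0.25).

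Catsperd, a subunit of the sperm cation channel, had 1 read in the 4 Hep-Bmal1WT and 37 in the 4 Hep-Bmal1KO livers at ZT2, a ratio of 28.4 (95% counting interval 4.79 to 1152). At ZT14 it was at 1.504 ± 0.774 CPM in Hep-Bmal1WT and 0.747 ± 0.3102 CPM in Hep-Bmal1KO livers (-1.02, 95% interval -2.31 to 0.27), and the change between the times was called with sex as a covariate (adjusted p = 0.032) and not without (0.07). The unannotated transcripts Gm13522 and CT010467.2 gave 2.34 and -1.77 at ZT2 and 0.65 and -0.31 at ZT14, with 95% intervals at ZT14 of -0.25 to 1.54 and -1.11 to 0.49. For 10 of the 18 genes the ZT14 interval still contained the ZT2 estimate. Eid1, Avpi1 and Gm13522 fall outside the naming rule and were chosen after their values were seen.

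**Figure D5:**
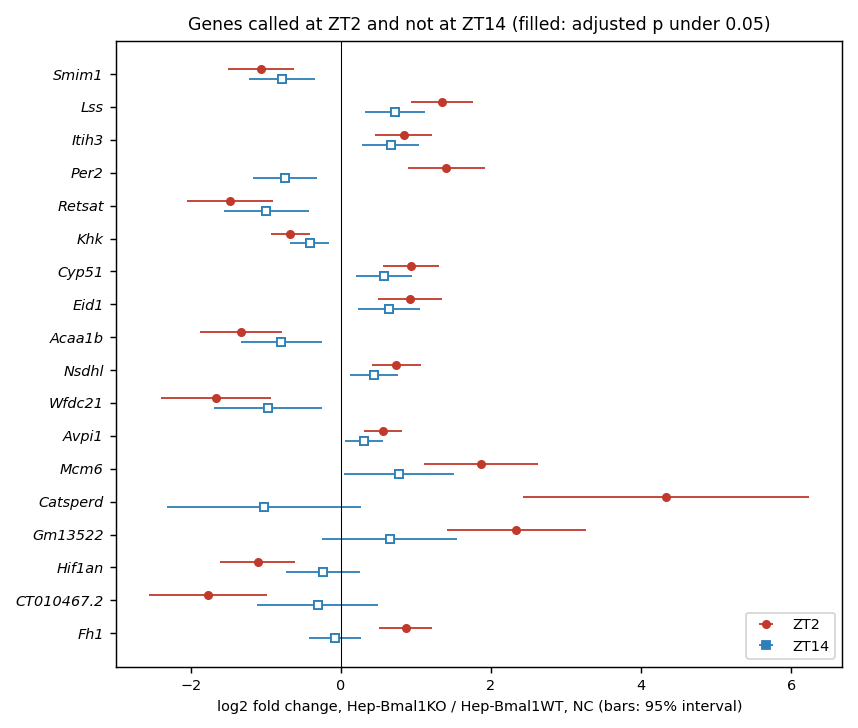
Log2 fold change of Hep-Bmal1KO over Hep-Bmal1WT livers with 95% intervals at ZT2 (red circles) and ZT14 (blue squares) for the 18 genes called at ZT2 and not at ZT14, ordered by the ZT14 p, filled where the adjusted p was under 0.05. From Smim1 down to Mcm6 all but Per2 keep the sign of ZT2 with ZT14 intervals off 0, while Per2 changes sign and the ZT14 intervals of the lowest 5 include 0.

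The genes whose genotype difference changed between the times were mostly called at ZT14 alone. Of the 18, 12 had the higher log2 fold change (Hep-Bmal1KO over Hep-Bmal1WT) at ZT14. Besides Tef, Per2 and Npas2, they included Gys2, the glycogen synthase of liver (-0.57 at ZT2 and -2.09 at ZT14, adjusted p of the change = 0.0031). Cdkn1a, a cell cycle inhibitor, gave 0.27 and 3.69 (0.02), Insig2, which retains sterol sensors in the endoplasmic reticulum, 0.34 and 1.91 (0.025), and Nampt, the rate-limiting enzyme of NAD salvage, 0.0024 and -1.37 (0.037). At ZT2 none of these 4 genes passed the test, with 95% intervals of -0.89 to -0.24, -0.54 to 1.07, -0.084 to 0.76 and -0.39 to 0.39. They fall outside the naming rule and were chosen after their values were seen. With sex as a covariate 81 genes had a called change, 12 of them called at ZT2, and Arntl was then among these (0.015).

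The same hour was also sampled under cdHFD, where 40 genes (0.257%) were called between the genotypes in a fit of those 8 libraries alone. Of the 63 genes called under NC, 56 had the same sign under cdHFD, and 6 were called there in the same direction and none in the other. Among these 6 were Lpl (0.96), Mme (-1.82), Cyp2a5 (-3.28), Cry1 (2.19) and Gm13775 (-3.79). Of the 18 genes that were not called at ZT14, 13 had the same sign under cdHFD and none was called there. The difference between the diets was not tested. Tef gave -1.15 under cdHFD (adjusted p = 0.069) and Fdps 0.051 (0.99). In Hep-Bmal1WT livers Fdps was at 22.3 ± 9.18 CPM under cdHFD and 255 ± 58.7 CPM under NC, each scaled in its own fit. The 2 genotype differences of Fdps were thus measured at unlike levels.

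Clock genes of Hep-Bmal1WT livers stood at different levels at ZT2 under the 2 diets. On a scale common to all 96 libraries, Dbp was at 4.75 to 7.93 CPM in the 4 Hep-Bmal1WT livers under NC and at 55.3 to 207.5 CPM under cdHFD. Nr1d1 was at 2.33 to 17.2 CPM under NC and 46.2 to 67.7 CPM under cdHFD, Tef at 14.9 to 24.6 and 33.6 to 77.8 CPM, and Arntl at 14.8 to 26.1 and 1.71 to 7.62 CPM. The 2 diets did not overlap for any of the 4 genes in Hep-Bmal1WT livers. The genotype differences at ZT2 under the 2 diets were thus measured at unlike levels of these clock genes. The share of all genes without overlap between the diets was not counted. The ZT2 groups of the 2 diets also sat in separate plate columns, so that column cannot be told apart from diet.

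At the threshold itself, the last genes called at ZT2 were Ces1d, Eid1 and Ly6e, each with an adjusted p of 0.049, and the first not called were Ppat, Hebp2 and Mcm2, each just above it at 0.0503. Ly6e, a membrane protein of the Ly6 family, went from 174 ± 78.8 to 451 ± 49.2 CPM (1.38 ± 0.30), and Mcm2, like Mcm6 a helicase subunit, from 3.15 ± 1.32 to 7.798 ± 1.39 CPM (1.3 ± 0.29).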

How the data were processed

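Livers were measured by BRB-seq. Per the labels and the study's methods, the authors used STAR for alignment to mm10, and the deposited table holds raw counts, not normalized, for each gene. HTSeq and featureCounts are both named for the counting, and whether molecular identifiers were collapsed is not given in the sources used here, so that counting intervals cover counting error only. Groups were taken from the sample titles, each library being 1 mouse, and replicates were numbered in accession order.

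Testing was limited to genes whose counts over the 96 libraries reached 100 in total (15548 of 55487, 29 of them without a count in the 16 libraries used). Rows that name no gene were left out, with 9.09% to 13.2% of the reads of the ZT2 libraries having no feature. edgeR 4.0.16 (R 4.3.3) was run on the 16 NC libraries of ZT2 and ZT14 with TMM scaling, 4 group means and the quasi-likelihood test, with Benjamini-Hochberg adjustment and calls at an adjusted p under 0.05. Values after ± are the SE for log2 fold changes and the SD for CPM. Positions are from RefSeq (14791 of the genes matched).

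Genes were named by rule: all clock list members (except 1 that is not reported here), the 12 of smallest p in each direction that changed by 1 or more on the log2 scale and did not overlap, the 6 of smallest p in each direction of the change between the times among ZT2 calls, genes called in opposite directions, and up to 4 called genes of each other list or its gene of smallest p. Alb, Ces1c, Hmgcs1, Smo and the genes beside the threshold were named after their values were seen. The members and lists were chosen with earlier results of these data known. Alternatives were DESeq2 1.42.0, its size factors, other filters and thresholds, sex as a covariate, other sets of libraries and leaving out each library. Promoter sequences were not analysed here.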

Additional observations from a re-analysis of the deposited data

Results flagged for a closer look

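The genotype difference changed between ZT2 and ZT14 for 3 of the named genes by edgeR's test of the change itself, by 2.24 on the log2 scale for Tef, 2.15 for Per2 and -4.83 for Npas2 (ZT2 minus ZT14).

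In 22 of 269 groups of 4 livers examined over the 73 named genes, 1 liver stood apart from the other 3 by Dixon's criterion, which chance alone gives in about 1 of 20 groups. In Hep-Bmal1KO ZT2 replicate 1 this was Fdps (433 CPM against 484 to 489.5) and Grk5 (14.9 CPM against 37.3 to 39.2). In Hep-Bmal1KO ZT2 replicate 2 this was Nfil3 (22.3 CPM against 17.6 to 18.4) and Per1 (6.69 CPM against 2.47 to 2.69). In Hep-Bmal1KO ZT2 replicate 3 this was Ces1e (23.7 CPM against 39.8 to 42.8) and Lpl (178 CPM against 286 to 306). In Hep-Bmal1KO ZT2 replicate 4 this was Cry1 (41.8 CPM against 30.9 to 32.4). In Hep-Bmal1WT ZT2 replicate 2 this was Clec4g (39.4 CPM against 53.8 to 56.01) and Cyp2a5 (1195 CPM against 442 to 517). In Hep-Bmal1WT ZT2 replicate 3 this was Col1a2 (12.3 CPM against 4.32 to 5.43), Hlf (7.69 CPM against 15.8 to 17.3) and Ighm (22.0 CPM against 4.95 to 6.68). In Hep-Bmal1WT ZT2 replicate 4 this was Ces1b (91.6 CPM against 65.6 to 66.6) and Raet1d (6.01 CPM against 3.74 to 4.10). In Hep-Bmal1KO ZT14 replicate 1 this was Mybbp1a (29.01 CPM against 24.1 to 24.3). In Hep-Bmal1KO ZT14 replicate 2 this was Nfil3 (22.7 CPM against 17.1 to 17.3), Oat (1496 CPM against 1232 to 1257) and St3gal5 (57.9 CPM against 87.4 to 93.2). In Hep-Bmal1KO ZT14 replicate 4 this was Igfbp2 (469.9 CPM against 359 to 378). In Hep-Bmal1WT ZT14 replicate 2 this was Retsat (779.9 CPM against 484 to 529.7). In Hep-Bmal1WT ZT14 replicate 3 this was Gm13775 (69.5 CPM against 39.9 to 43.8) and Zbtb16 (1.94 CPM against 2.56 to 2.60).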

How the results depend on the processing

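None of the 63 genes called at ZT2 changed direction under 15 alternatives, and 6 of them (Lpl, Mme, Raet1d, Tef, Lss and Smo) were called under every one. A change of direction was unlikely from the start, because the alternatives reuse all or most of the same ZT2 libraries. Of the 63, 46 lost their call in the fit of all 48 NC libraries and 35 in the fit of the 8 ZT2 libraries alone. Counts are given in the order ZT2 calls, ZT14 calls, changes between the times, such changes among ZT2 calls, and ZT2 calls found at ZT14 in the same direction, in the opposite direction and not at all, which were 63, 403, 18, 2, 44, 1 and 18. With DESeq2 they were 188, 673, 71, 8, 110, 2 and 76, and with sex as a covariate 247, 798, 81, 12, 164, 2 and 81. With no filter on low counts the ZT2 calls were 118, the changes 36, and the last 3 counts 79, 2 and 37. The stricter filter gave 2 genes in opposite directions. In the fit of all 48 NC libraries the ZT2 calls were 21, the changes 2 with 1 among the ZT2 calls, and 9 were found at ZT14 in the same direction and 11 not at all. The 8 ZT2 libraries alone gave 35. At an adjusted p under 0.1 the counts were 123, 640 and 30, with the last 3 at 85, 2 and 36, and a bound of 1 on the absolute log2 fold change left 239 calls at ZT14. The cdHFD calls were 99 with sex as a covariate, an alternative chosen after seeing the data. The cause of these shifts was not tested. DESeq2 size factors in edgeR moved none of these counts by over 1.5 times.

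Leaving out 1 library gave 35 to 87 ZT2 calls, 272 to 444 ZT14 calls, 7 to 36 changes between the times (7 without Hep-Bmal1WT ZT2 replicate 1, 36 without replicate 2) and 2 to 4 among the ZT2 calls. It gave 29 to 61 genes in the same direction, 1 to 2 in opposite directions and 4 to 25 not called at ZT14. The ZT2 log2 fold change of Clock ranged from -0.14 to 0.0095 (without Hep-Bmal1WT ZT2 replicate 1) and that of Ciart from -2.64 to 0.030 (without Hep-Bmal1WT ZT2 replicate 4), neither called. No fit with paired mice was run, because the labels name no pairs and replicate numbers follow accession order.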

Other observations

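The other 13 genes called at ZT2 were all called at ZT14 in the same direction, and they are named here after their values were seen. Secreted and lysosomal proteins were among the higher ones. Cp, the ferroxidase ceruloplasmin, went from 518 ± 55.2 CPM in Hep-Bmal1WT to 826 ± 43.002 CPM in Hep-Bmal1KO livers (log2 fold change 0.67 ± 0.13, adjusted p = 0.015 by edgeR), and Ctsl, the lysosomal protease cathepsin L, from 594 ± 73.3 to 1004 ± 131 CPM (0.76 ± 0.16, adjusted p = 0.032). Mug2, a protease inhibitor of the murinoglobulin family with close paralogs, rose by 1.16 and Defb1, a beta-defensin, by 2.52, with Defb1 at 4.52, 8.79, 9.22 and 7.33 CPM in Hep-Bmal1WT and 30.6, 17.3, 54.8 and 65.6 CPM in Hep-Bmal1KO livers. Smo, the membrane transducer of Hedgehog signalling, went from 4.52, 3.66, 2.56 and 5.28 CPM to 16.3, 15.9, 12.9 and 11.2 CPM (1.74 ± 0.31, adjusted p = 0.0095), without overlap. Rfc5, a subunit of the replication clamp loader, Lmo2, a LIM domain cofactor of transcription, Ccni, a cyclin, and the long non-coding RNA Gm11832 rose by 0.91, 1.02, 0.62 and 2.08 (adjusted p = 0.031, 0.047, 0.014 and 0.036). The lower ones were Rasgrp2, an exchange factor for Rap GTPases, Chd3, a chromatin remodeller, Cyp2d40, a cytochrome P450 with close paralogs, and Smim22, a small membrane protein, at -0.95, -0.94, -1.48 and -1.67 (adjusted p = 0.012, 0.04, 0.047 and 0.047).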
